A study of Mus musculus with 6 samples.

Results

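The levels of 8 genes whose human orthologs are mutated in spinocerebellar ataxia were followed in the cerebellum of mice at postnatal day 18: Atxn1, Atxn2, Atxn3, Atxn7, Atxn10, Ttbk2, Ppp2r2b and Afg3l2. They were chosen by symbol, and all 8 were found among the 24411 genes counted and among the 15519 genes that passed the filter on low counts. RNA was sequenced in bulk from 3 wild-type (WT) libraries and 3 libraries of mice that lack the remote enhancer of Atoh7 (KO). Atoh7 encodes a basic helix-loop-helix factor that retinal ganglion cells need to form. The protocol calls the replicates independent, and the sources used here state neither strain and sex nor how many animals went into a library. The tissue entry of the samples reads retina while the protocol reads cerebellum. The 10 retinal markers summed to 3.13 to 4.18 CPM (gene reads per 1000000, scaled by TMM, a factor for differences in library makeup) over the 6 libraries, with Crx at 0 reads in all of them, where Purkinje cell markers summed to 3660 to 5150 CPM, so the RNA is described here as cerebellar.

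Spinocerebellar ataxias are inherited disorders in which coordination is lost as the cerebellum and its connections degenerate, often with the Purkinje cells hit early. In ATXN1, ATXN2, ATXN3 and ATXN7 the usual mutation is a lengthened run of CAG codons that encodes glutamine. In ATXN10 the repeat lies in an intron, in PPP2R2B it lies upstream of the coding region, and TTBK2 and AFG3L2 carry truncating and missense mutations instead. The proteins have little in common otherwise: a transcriptional co-repressor, an RNA-binding protein, a deubiquitinase, a histone deubiquitination subunit, a protein that promotes neurite growth, a kinase, a phosphatase subunit and a mitochondrial protease.

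The mouse genes hold short glutamine codon runs at most. Among the 4 genes of the coding CAG repeat, the longest unbroken run of CAG or CAA codons was 6 in Atxn3 (codons 292 to 297, 5 CAG and 1 CAA), 5 in Atxn7 (codons 25 to 29, all CAG), and 3 each in Atxn1 (codons 444 to 446) and Atxn2 (codons 1129 to 1131). In the other 4 members it was 1 or 2. These stretches of coding sequence are shown because they are the longest such runs in the mouse members whose human orthologs carry a coding CAG repeat. The capitals mark the unbroken run, with 12 bases on either side, which can hold further glutamine codons.
Atxn3: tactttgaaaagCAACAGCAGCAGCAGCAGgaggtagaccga
Atxn7: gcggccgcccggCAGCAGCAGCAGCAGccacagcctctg
Atxn1: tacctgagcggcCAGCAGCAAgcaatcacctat
Atxn2: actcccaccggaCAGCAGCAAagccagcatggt
They lie in GRCm38 at chr12:101926551-101932978 (minus strand, with an intron within), chr14:14013144-14013182 (plus strand), chr13:45567068-45567100 (minus strand) and chr5:121810934-121810966 (plus strand), in this order. The codons were read from the annotated transcript with the longest complete coding sequence of each gene, and they were not aligned with the human repeats. Reads per gene do not resolve the tracts, so nothing about their length in these mice was measured.

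The genes are spread over 7 chromosomes, none of them chromosome 10, where Atoh7 lies. Atxn1 (chromosome 13, 45549755 to 45965008) and Ppp2r2b (chromosome 18, 42637432 to 43059471) span 415.3 and 422.0 kb, with 3.35% and 0.944% of the span in exons. Atxn7 (chromosome 14, 13961440 to 14107302), Atxn10 (chromosome 15, 85336245 to 85463212), Ttbk2 (chromosome 2, 120732816 to 120850604) and Atxn2 (chromosome 5, 121711337 to 121816493) span 105.2 to 145.9 kb. The shortest are Afg3l2 (chromosome 18, 67404764 to 67449172) and Atxn3 (chromosome 12, 101918901 to 101958246), at 44.4 and 39.3 kb. Their merged exons came to 1.94 kb in Atxn10 and to 3.98 to 15.69 kb in the others, against a median of 4.40 kb over tested genes with a known length. GC content of the longest transcript ran from 40.6% to 49.9%, against a median of 49.8%.

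Libraries held 16340132 to 34438262 gene reads, and WT replicate 3 stood apart. In it the ribosomal RNA precursor Rn45s took 63.2% of gene reads, against 1.28% to 3.04% elsewhere, which left 6015125 reads on other genes. Reads outside annotated exons made up 32.0% to 38.5% of WT and 17.1% to 17.6% of KO libraries. WT replicate 1 alone had more than 10 Xist reads (31134). Reads of Atoh7 numbered 72, 56 and 7 in the WT libraries and 45, 54 and 92 in the KO libraries (log2 fold change −0.18, SE 0.28, edgeR adjusted p = 0.706), and since the deleted element is remote from the gene this does not check the labels.

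All members were expressed well above the filter. On the scale of CPM per kilobase of merged exons, which allows genes to be set side by side, Atxn10 was at the top with 90.3 ± 4.73 in WT and 106 ± 4.27 in KO (SD, n = 3 each), at the 98.6th percentile of 14947 tested genes. Ttbk2 followed with a level of 23.2 ± 1.82 in WT and 26.8 ± 0.578 in KO, and Ppp2r2b with 15.7 ± 1.14 and 16.9 ± 1.23. Atxn2 had 7.72 ± 1.27 in WT and 6.96 ± 0.596 in KO, and Atxn1 had 6.50 ± 0.349 and 7.81 ± 0.248. Afg3l2 (5.64 ± 0.437 and 5.96 ± 0.137), Atxn3 (4.61 ± 0.171 and 4.74 ± 0.0846) and Atxn7 (3.34 ± 0.189 and 2.80 ± 0.225) closed the order, Atxn7 at the 41.3rd percentile. In WT only the neighbours Atxn2 and Atxn1 overlapped between libraries. In KO no neighbours did, and Atxn1 stood above Atxn2. With the longest annotated transcript as the length, Ppp2r2b (27.5 ± 1.99 in WT) passed above Ttbk2 (23.7 ± 1.86), Atxn2 was at 17.4 ± 2.86 and Afg3l2 (11.9 ± 0.925) moved above Atxn1 (8.56 ± 0.460), so the middle of the order depends on which exons are counted.

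**Figure D1:**
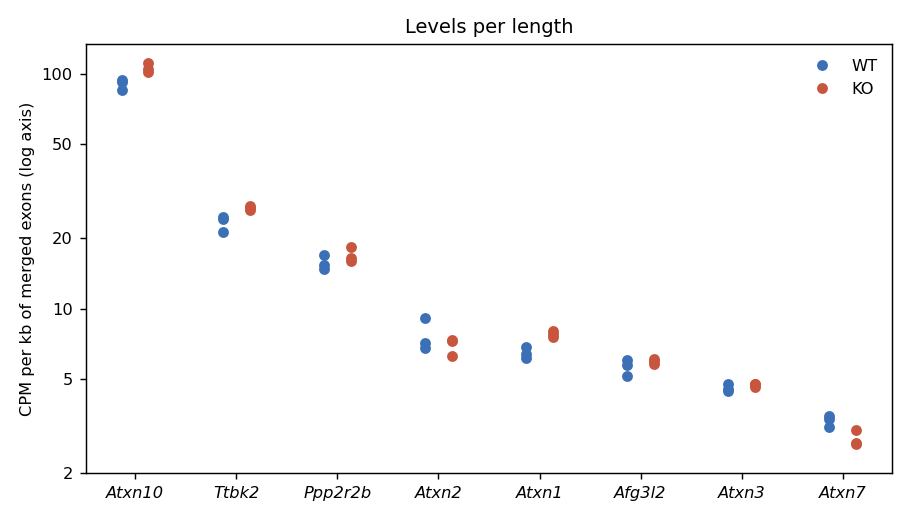
Levels of the 8 ataxia genes as CPM per kilobase of merged exons on a log axis, 1 point per library (WT blue, KO red, n = 3 each), ordered by the WT mean. Atxn10 stands apart from the others at 85.0 to 111, and the WT points of Atxn2 and Atxn1 overlap.

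The comparison of KO with WT asks whether loss of the enhancer is accompanied by other RNA levels in the cerebellum. Of the 8 genes, 2 rose in KO (Atxn1 and Atxn10), 0 fell and 6 did not pass the threshold of 0.05 on the adjusted p of edgeR's quasi-likelihood test. Unadjusted p was under 0.05 in 4 of them; DESeq2 called 3 higher and 0 lower, and limma-voom with sample quality weights 3 higher and 1 lower. The 2 calls are 25% of the members, where 16.7% of all tested genes passed in either direction, 6.43% higher and 10.2% lower. The libraries of the genotypes did not overlap in 4 members (Atxn1, Atxn7, Atxn10 and Ttbk2), or 50%, against 39.4% of all tested genes. KO lay above WT in 3 of these and below in Atxn7, where 18.9% and 20.5% of all tested genes did so. With 8 genes, counts this near the background are not a result about the ataxia genes. The members' median log2 fold change was 0.08, against −0.01 over all tested genes. Since the tissue was taken whole, fewer cells of a type and less RNA per cell cannot be told apart in any of these values.

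Atxn1 encodes ataxin-1, which works with the repressor Capicua (Cic) at target promoters. From replicate 1 to replicate 3 its level was 95.7, 89.5 and 86.2 CPM in WT, and 112, 109 and 105 CPM in KO. Every KO library was above every WT library, and the lowest WT value came from the library with the Rn45s excess. The mean went from 90.5 ± 4.86 to 109 ± 3.45 CPM (SD, n = 3 each), an increase of 19.8% (log2 0.26, SE 0.065; adjusted p = 0.0224 by edgeR with Benjamini-Hochberg adjustment). Without WT replicate 2 or any KO replicate the call was lost while log2 values stayed at 0.24 to 0.28 (edgeR adjusted p up to 0.0906). With the covariate on read assignment the log2 value was 0.175 (edgeR adjusted p = 0.222). This covariate sets reads outside annotated exons against those on genes other than Rn45s, on the log2 scale. It separated the genotypes completely. Within them it varied mostly through WT replicate 3, with 6015125 such gene reads against 26021719 or more in each other library. Fits with it lean on that library. A call kept or lost with it, here and below, is therefore no check of a genotype effect.

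Atxn10 encodes ataxin-10, an armadillo-repeat protein that promotes neurite growth and binds the O-GlcNAc transferase Ogt. It had 182, 179 and 165 CPM in the WT and 198, 214 and 204 CPM in the KO libraries. The genotypes again did not overlap, with a gap from 182 to 198 CPM. The mean went from 175 ± 9.15 to 205 ± 8.28 CPM (SD, n = 3 each), 17.1% higher (log2 0.23, SE 0.06; edgeR adjusted p = 0.0371). The call was lost without WT replicate 2 or any KO replicate (edgeR adjusted p of 0.0726 to 0.144), after removal of a trend on GC content and transcript length (0.20; 0.0710), and with the covariate (0.12; 0.412).

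Ttbk2 encodes a tau-tubulin kinase that starts the assembly of primary cilia. With 279, 274 and 241 CPM in WT and 306, 313 and 300 CPM in KO it was the member with the most reads. All KO libraries were above all WT libraries, of which WT replicate 3 was the lowest. Its change of 15.5% (log2 0.21, SE 0.07) did not pass (edgeR adjusted p = 0.0616), yet it passed in 5 of 15 alternatives, among them DESeq2 (0.0421), and with the covariate the log2 value was 0.04.

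Atxn7 encodes a subunit of the SAGA complex that anchors its histone deubiquitination module, and it was the member whose KO libraries all lay below WT. It had 27.9, 27.1 and 25 CPM in WT and 21.2, 21.5 and 24.4 CPM in KO. KO replicate 3 came close to WT replicate 3, and the other libraries were farther apart. The mean went from 26.6 ± 1.51 to 22.4 ± 1.79 CPM (SD, n = 3 each; log2 −0.26, SE 0.08), just outside the threshold (edgeR adjusted p = 0.0563). It passed in 2 of 15 alternatives: edgeR without WT replicate 3 (−0.30; adjusted p = 0.0163) and limma-voom with sample quality weights (−0.28; 0.0149). The others did not call it, among them DESeq2 (−0.26; adjusted p = 0.0785), and in 1 of them its sign turned.

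Atxn2 encodes an RNA-binding protein of poly(A) tails and stress granules. Its levels were 107, 112 and 144 CPM in WT and 115, 114 and 98.3 CPM in KO. The genotypes overlapped, and WT replicate 3 was the high value. The log2 fold change of −0.14 (SE 0.11; edgeR adjusted p = 0.424) became −0.01 without that library, and its sign turned to 0.20 with the covariate.

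The remaining members did not pass, and their genotypes overlapped. Ppp2r2b, the neuronal B-beta regulatory subunit of protein phosphatase 2A, had 67.4, 61.2 and 58.6 CPM in WT and 63.4, 72.8 and 65.7 CPM in KO (log2 0.10, SE 0.08; edgeR adjusted p = 0.397). Afg3l2, a subunit of the m-AAA protease of the inner mitochondrial membrane, had 59.4, 56.7 and 51.0 CPM in WT and 58.8, 60.1 and 57.4 CPM in KO (log2 0.07, SE 0.07; 0.542). Atxn3, a deubiquitinase that cooperates with the segregase Vcp, had 26.0, 24.7 and 24.2 CPM in WT and 25.1, 26.0 and 25.9 CPM in KO (log2 0.04, SE 0.07; 0.768). Atxn3 varied least between libraries of a genotype among the 8 members, with an SD of 3.70% of the mean in WT and 1.78% in KO. A missed threshold does not show that the levels are equal.

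**Figure D2:**
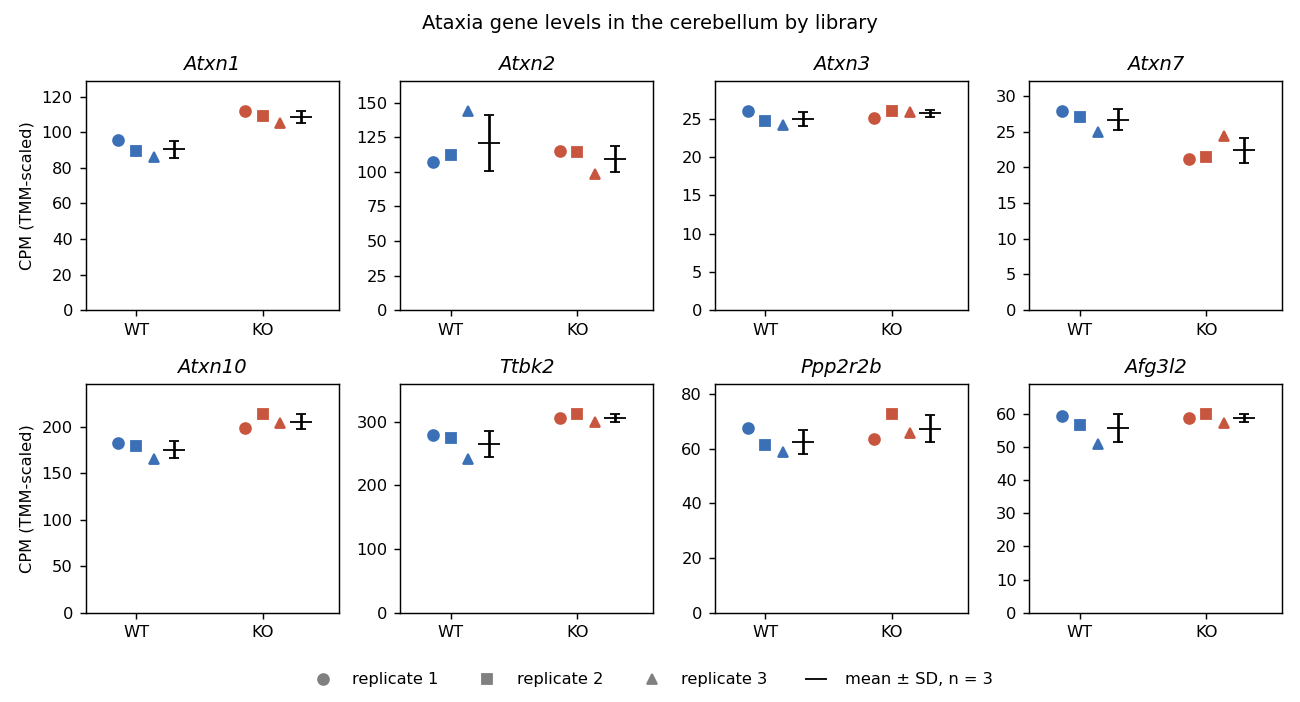
CPM (scaled by TMM) of each ataxia gene in the 6 libraries, with marker shapes for replicates 1 to 3, WT in blue and KO in red, and the mean ± SD (n = 3) in black; each axis starts at 0. Atxn1, Atxn10 and Ttbk2 have all KO libraries above WT, Atxn7 all below, and WT replicate 3 is the high point of Atxn2 at 144 CPM.

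**Figure D3:**
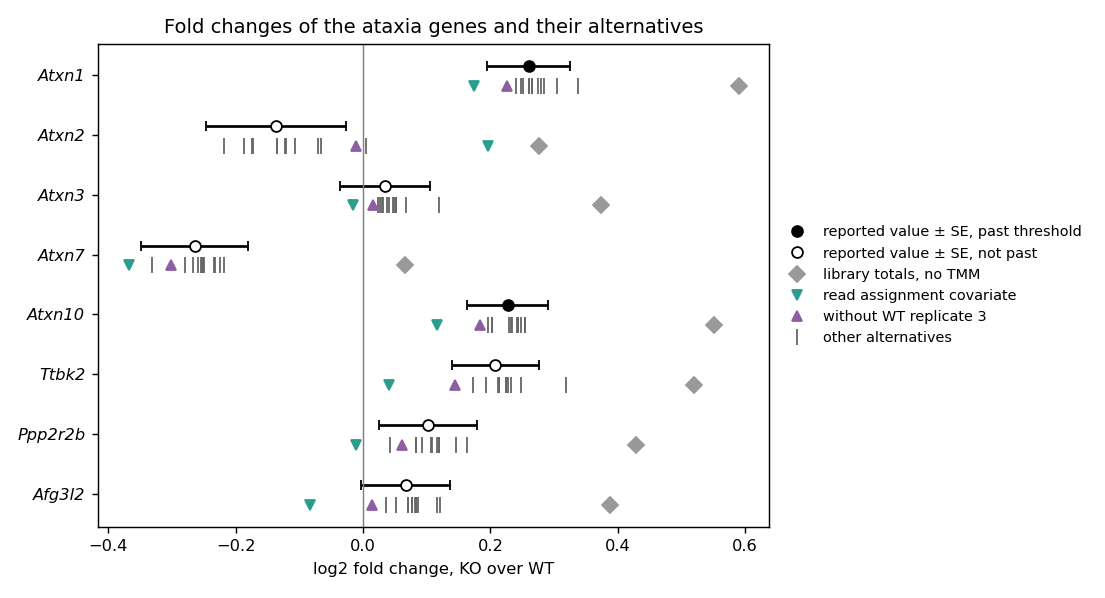
Log2 fold change of each member (circle with SE, filled where the edgeR adjusted p was under 0.05) and the same under 15 alternatives below it. Scaling by library totals moves every member to the right, Atxn1 as far as 0.59, and the covariate on read assignment moves every member to the left except Atxn2, which it moves to 0.20.

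Other RNA moved between the genotypes beside these values, with 6.43% of all tested genes called higher and 10.2% lower. Among cell type markers, 3 of 10 Purkinje cell genes rose and 0 fell, with summed levels of 3660 to 4600 CPM in WT and 4120 to 5150 CPM in KO. Of 10 granule neuron genes 3 fell and 0 rose (2070 to 2660 against 1620 to 2240 CPM), and of 8 interneuron genes 4 rose and 1 fell (804 to 874 against 952 to 991 CPM). Vessel markers had 5 of 7 lower (189 to 203 against 134 to 135 CPM) and meningeal fibroblast markers 6 of 7 lower (269 to 409 against 189 to 203 CPM). No marker of these lists was at 0 in all libraries. Oligodendrocyte markers had 0 of 9 past the threshold while their sum was 23000 to 26700 CPM in WT and 29400 to 31400 CPM in KO, with unadjusted p under 0.05 in 5. Astrocyte markers had 1 of 9 higher and 1 lower (5510 to 5700 against 6080 to 6720 CPM). Slc1a2 alone gave 2580 to 2940 CPM of that sum in WT and 3450 to 3760 CPM in KO. Only 2 of the 9 genes had genotypes that did not overlap. Microglia and choroid plexus had at most 1 gene past the threshold. The part of the cell makeup in the levels of the ataxia genes was not tested. That of the reads outside genes cannot be told apart from genotype, since they made up 32.0% to 38.5% of WT and 17.1% to 17.6% of KO libraries. The fits with the covariate do not settle this, because its spread within a genotype comes mostly from WT replicate 3.

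Among partners and paralogs of the members, 71 genes were tested: 10 rose, 9 fell and 52 did not pass, or 26.8% past the threshold against 16.7% of all tested genes, with a median log2 fold change of −0.01. Of the 19 calls, 3 held in all 6 fits that leave out a library. The list was chosen with earlier results of these data known, and its difference from all genes was not tested. The partners of ataxin-1 had 1 of 8 past the threshold. Its paralog Atxn1l, which shares the Capicua partnership, rose from 61.8 ± 4.44 to 73.3 ± 0.884 CPM (SD, n = 3 each; log2 0.24, SE 0.07; edgeR adjusted p = 0.0384). Cic itself was at 0.19 (0.0638). Among 10 genes that Capicua represses, such as the ETS factors Etv1, Etv4 and Etv5, only Spry2, an inhibitor of receptor tyrosine kinase signalling, rose (0.27, SE 0.08; 0.0384), 0 fell and 9 did not pass, with a median of 0.09. Spred1 (0.22) and Spry4 (0.30) missed the threshold, and Etv1, also a granule neuron gene, was at −0.31. Spry2 lost its call without WT replicate 1 or any KO replicate, as Atxn1l did, and with the covariate they were at 0.09 and 0.11 (adjusted p = 0.638 and 0.455 by edgeR). Without KO replicate 1 the only gene of this list past the threshold was a lower one.

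Of 18 listed paralogs of Atxn7 and SAGA subunits, 4 rose and 2 fell, where 6.43% of all tested genes rose and 10.2% fell. The difference was not tested. Atxn7l3b (log2 0.31, SE 0.06; edgeR adjusted p = 0.0104) rose and the core subunit Supt20 fell from 22.8 ± 2.16 to 14.1 ± 0.723 CPM (SD, n = 3 each; −0.67, SE 0.09; 0.00111), the latter in all 6 fits that leave out a library. Atxn7l2, the paralog, fell as well (−0.52, SE 0.12; 0.0180). Atxn7l3b lost its call without KO replicate 2 or 3 and Atxn7l2 without WT replicate 2 or KO replicate 1 or 3. Both also lost it with the covariate (0.19 and −0.65, edgeR adjusted p = 0.169 and 0.0524), and Supt20 was called there at −0.50 (0.0237). The other genes of this list past the threshold were Tada2b, Supt7l and Atxn7l3, higher by 0.27, 0.37 and 0.38. Their calls held in 2, 1 and 2 of the 6 fits, each among them without WT replicate 3, and with the covariate Tada2b was at 0.33 (0.0802), Supt7l at 0.55 (0.0393) and Atxn7l3 at 0.02 (0.917). The deubiquitinase Usp22 (0.12) and its activator Eny2 (−0.10), which sit with ataxin-7 in the same module, did not pass. Per kilobase Atxn7 was at a lower level (3.34 ± 0.189 in WT) than Atxn7l3b (66.3 ± 3.87) and Atxn7l3 (28.4 ± 4.82) and above Atxn7l1 (1.88 ± 0.152) and Atxn7l2 (1.93 ± 0.243).

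Proteins of the Ttbk2 group had 2 of 9 genes higher and 3 lower, where 6.43% of all tested genes were higher and 10.2% lower. The difference was not tested. The paralog Ttbk1 rose from 99.6 ± 6.02 to 125 ± 7.14 CPM (SD, n = 3 each; log2 0.32, SE 0.07; edgeR adjusted p = 0.0136), and so did Mapre1, the microtubule end-binding protein EB1 (0.26, SE 0.06; 0.0154). Mphosph9, a centriolar protein that Ttbk2 phosphorylates, fell (−0.44, SE 0.09; 0.0117). The distal appendage genes Cep164 (−0.48), which recruits Ttbk2 to the centriole, and Cep83 (−0.38) fell too, but each lost its call without any KO replicate. Mapre1 lost it without WT replicate 2 or KO replicate 2 or 3, Mphosph9 without KO replicate 2 or 3, and Ttbk1 without KO replicate 1 or 3. With the covariate Mapre1 was still called (0.32, edgeR adjusted p = 0.0265), while Ttbk1 (0.20; 0.191), Mphosph9 (−0.24; 0.249), Cep164 (−0.14; 0.518) and Cep83 (−0.12; 0.550) were not. Tau (Mapt) was at 0.05. Ttbk2 had the higher level of the kinase pair per kilobase, 23.2 ± 1.82 against 7.07 ± 0.427 for Ttbk1 in WT.

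Among phosphatase 2A genes, 3 of 8 listed with Ppp2r2b rose and 0 fell: the catalytic subunit Ppp2cb (log2 0.23, SE 0.06; edgeR adjusted p = 0.0332), the scaffold Ppp2r1a (0.27, SE 0.08; 0.0396) and the regulatory subunit Ppp2r2c (0.23, SE 0.07; 0.0445). Over all tested genes 6.43% rose and 10.2% fell, and the difference was not tested. Ppp2r2c was the B subunit with the highest level per kilobase, 81.2 ± 5.62 in WT, above Ppp2r2b (15.7 ± 1.14) and Ppp2r2a (14.2 ± 1.54). All 3 calls were lost without WT replicate 2 or any KO replicate, and those of Ppp2cb and Ppp2r2c also without WT replicate 1. With the covariate they were lost too, at 0.14 for Ppp2cb (edgeR adjusted p = 0.321), 0.05 for Ppp2r1a (0.767) and 0.10 for Ppp2r2c (0.527).

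Of the partners of Atxn10, Ogt fell from 206 ± 15.5 to 121 ± 2.26 CPM (SD, n = 3 each; log2 −0.76, SE 0.07; edgeR adjusted p = 9.90e-05), opposite in direction to Atxn10, and the other 2 did not pass. The Ogt call was kept in all 6 fits that leave out a library, and with the covariate its log2 value was −0.91. Among 6 partners of Atxn2, Tardbp, which encodes the RNA-binding protein TDP-43, fell from a mean of 147 to 103 CPM (−0.51, SE 0.07; 0.00111). Its call was also kept in all 6 of those fits, and with the covariate it was at −0.43. Neither kind of fit separates genotype from the share of reads outside genes. The paralog Atxn2l fell by 0.28 on the log2 scale (SE 0.08; adjusted p = 0.0465), a call lost without WT replicate 2 or 3 or KO replicate 2 or 3, and with the covariate (−0.18; 0.412). Of 11 genes listed with Afg3l2, Yme1l1, the protease facing the intermembrane space, fell (−0.21, SE 0.06; 0.0333; called in 1 of 6 such fits, that without WT replicate 3, and not with the covariate, −0.23 and 0.0757), while Spg7, which forms the m-AAA protease with Afg3l2, was at 0.19 (0.107) and Afg3l1 at −0.04. Of 8 genes listed with Atxn3, 0 passed the edgeR test, 1 had an unadjusted p under 0.05, and DESeq2 called 0 and limma-voom 1. Vcp was at 0.07. Beside these small counts, 16.7% of all tested genes passed the edgeR threshold.

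Of 32 other genes of dominant ataxias, 31 were tested. Among these 3 rose, 2 fell and 26 did not pass, 16.1% called beside the 16.7% of all tested genes, with a median log2 fold change of 0.14. The calcium channel gene Cacna1g rose from 293 ± 20.3 to 371 ± 37.0 CPM (SD, n = 3 each; log2 0.34, SE 0.08; edgeR adjusted p = 0.0207), the fatty acid elongase Elovl5 by 0.26 (SE 0.07; 0.0236) and the translation factor Eef2 by 0.25 (SE 0.07; 0.0383). Plekhg4, a guanine nucleotide exchange factor, fell from 2.82 ± 0.317 to 1.26 ± 0.332 CPM (−1.18, SE 0.22; 0.00576), and Samd9l, an interferon-induced gene, from 7.50 ± 0.555 to 4.89 ± 0.535 CPM (−0.63, SE 0.13; 0.00941). Plekhg4 was called in all 6 fits without a library, Samd9l in all but that without KO replicate 3. Cacna1g and Elovl5 lost their calls without WT replicate 1 or KO replicate 1 or 3, and Eef2 kept its call only without WT replicate 3. With the covariate Plekhg4 was called (−1.27, edgeR adjusted p = 0.0436), while Samd9l (−0.68; 0.0578), Cacna1g (0.28; 0.210), Elovl5 (0.17; 0.260) and Eef2 (0.15; 0.302) were not.

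Of 37 recessive and episodic ataxia genes 1 rose, 3 fell and 33 did not pass, 10.8% called beside the 16.7% of all tested genes, with a median of −0.03. The difference from all genes was not tested. Atm, the DNA damage kinase of ataxia telangiectasia, fell from 43.7 ± 0.417 to 30.2 ± 0.725 CPM (SD, n = 3 each; log2 −0.53, SE 0.06; edgeR adjusted p = 5.49e-04). Syne1, the giant nuclear envelope protein nesprin-1, fell from 520 ± 63.8 to 341 ± 38.4 CPM (−0.61, SE 0.10; 0.00415). Both held in all 6 fits that leave out a library, and Syne1 was at −0.37 with the covariate (0.128). Cyp27a1, a sterol hydroxylase, fell by 0.40 on the log2 scale (SE 0.11; adjusted p = 0.0339) and the potassium channel gene Kcna1 rose by 0.23 (SE 0.06; 0.0246). Cyp27a1 kept its call only without WT replicate 1 or 3, and Kcna1 only without WT replicate 3. With the covariate Atm (−0.54) and Cyp27a1 (−0.63; edgeR adjusted p = 0.0220) were called and Kcna1 (0.20; 0.158) was not.

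**Figure D4:**
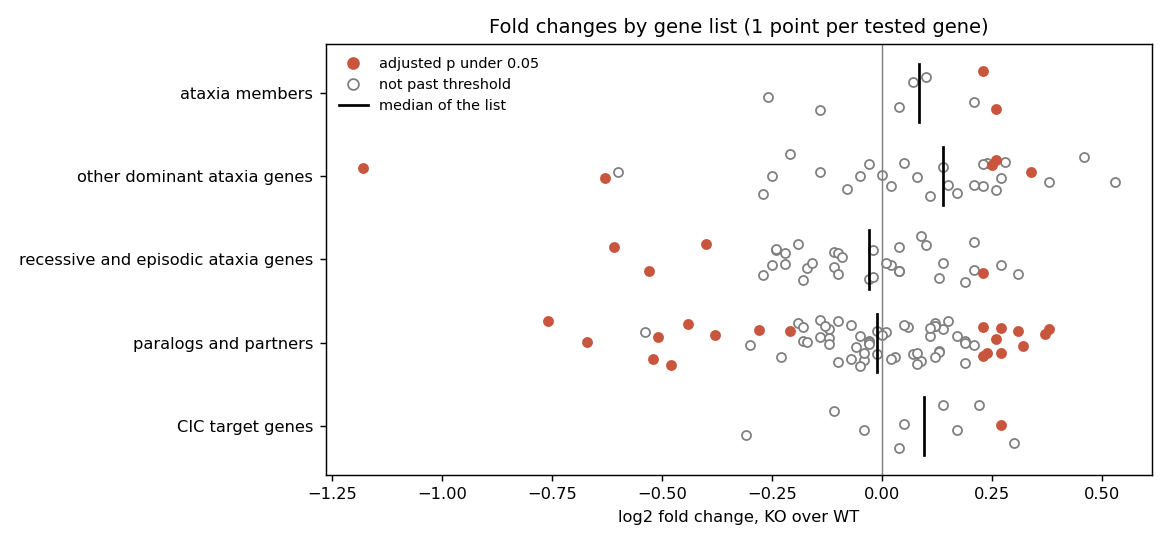
Log2 fold changes of the tested genes of each list, 1 point per gene, filled red where the edgeR adjusted p was under 0.05, with the list's median as a black bar; vertical scatter within a list has no meaning. The 8 members lie between −0.26 and 0.26, inside the span of the other lists, which reaches −1.18 (Plekhg4).

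Reads on the strand opposite a member were few. They numbered 0 to 53 per member and library. In Atxn1 they made up 1.79% ± 0.324 of the reads of both strands in WT and 0.665% ± 0.0276 in KO (SD, n = 3 each), from 49, 53 and 12 reads in WT and 29, 30 and 28 in KO. The WT libraries were all above the KO libraries, which was so in 9.58% of all tested genes. The share is not independent of the gene's level, because more reads of Atxn1 itself lower it. Exons of Gmpr, a GMP reductase gene on the other strand, overlap Atxn1 exons by 375 bases in the annotation, and Gmpr was at 20.8 ± 2.75 and 23.6 ± 1.40 CPM (log2 0.15, edgeR adjusted p = 0.301). In the other 7 members the mean share was at most 0.916% and the genotypes overlapped. Ttbk2 shares 3409 exonic bases with annotated Cdan1 on its own strand, and Cdan1 fell from 26.7 ± 2.40 to 18.6 ± 0.672 CPM (−0.54, SE 0.08; 0.00244); no source used here says how the submitters' annotation treats that overlap.

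The genes whose log2 CPM ran most like each member over the 6 libraries, out of 11480 with a mean of at least 5 CPM, were Adra2c for Atxn1 (Pearson r = 0.995), Zfp580 for Atxn2 (0.994), Rgs6 for Atxn3 (0.997) and Hps3 for Atxn7 (0.992). For Atxn10 it was Slc25a12 (0.999), for Ttbk2 Wbscr17 (0.998), for Ppp2r2b Prima1 (0.996) and for Afg3l2 Dnajc6 (0.997). The 6 points share 2 genotypes and the library with the Rn45s excess, and r above 0.95 was reached by 56 genes for Atxn7 and up to 634 for Ttbk2, so such a likeness is common here.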

How the data were processed

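The deposited files hold raw read counts per gene of 6 libraries, 1 file each; per the submitters' processing notes, Trimmomatic and STAR were used on mm10. Tool versions, annotation and strand setting: not given in the sources used here. The count column of the heavier strand was used (47.6 to 128 times the other), without the 4 summary lines, of which reads outside genes were 17.1% to 38.5% of a library, unmapped reads 5.97% to 18.2%, reads with several places 6.97% to 9.83% and reads in more than 1 gene at most 0.458%. Reads of near-identical copies are dropped by such counting.

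Genotypes were compared with edgeR's quasi-likelihood test (edgeR 4.0.16, R 4.3.3, robust, TMM scaling, filterByExpr with a minimum count of 10, which removed 8892 genes) with Benjamini-Hochberg adjustment over 15519 genes. The code was tested on simulated data with larger fold changes than those of the members and no Rn45s excess, so that trial does not bear on their calls. The standard error of a log2 fold change is its size over the root of the F statistic. CPM used TMM-scaled library sizes, and log2 CPM for likeness a prior count of 2. P-values set the difference between genotypes against the spread between these libraries. How many animals went into a library is not stated, so whether that is a spread between animals is not known. Alternatives used DESeq2 1.42.0, limma 3.58.1 and edgeR; DESeq2 and limma-voom changed scaling or weights together with the test, and the library totals without Rn45s changed the genes counted together with the scaling; the covariate was log2 of reads outside annotated exons over gene reads, Rn45s left out. Positions, lengths, GC content and coding sequences came from GENCODE M21 (GRCm38, which mm10 denotes). Members and lists were chosen with earlier results of these data known. All members were named; from the dominant and recessive lists the genes of smallest p, at most 5 in each direction, from partners up to 3 per member, and from Capicua targets up to 3; Tada2b, Supt7l, Atxn7l3, Cep164, Cep83 and genes given as not past the threshold were named after their values were seen.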

Additional observations from a re-analysis of the deposited data

How the results depend on the processing

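Atxn1, Atxn10 and Ttbk2 stayed higher in KO under all 15 alternatives, with log2 values of 0.175 to 0.59, 0.116 to 0.552 and 0.041 to 0.52, and passed the threshold in 7, 6 and 5 of them. Signs turned with library totals and no TMM scaling, which moved the median of all genes to 0.34 (Atxn2 at 0.277, Atxn7 at 0.066), with the read assignment covariate (Atxn2 at 0.197, Atxn3 at −0.016, Ppp2r2b at −0.011, Afg3l2 at −0.083) and with the GC content and length trend removed (Atxn2 at 0.005). Counts of genes past the threshold are given next in the order all genes, members, other dominant, recessive and episodic, partners, and Capicua targets; with all libraries they were 2585, 2, 5, 4, 19 and 1. Library totals gave 10 over all genes (5 higher, 5 lower) and 0 in every list; library totals without Rn45s gave 1237 (196 higher, 1041 lower, against 998 and 1587 with TMM), 0, 2, 2, 8 and 0. The covariate gave 1422, 0, 2, 6, 12 and 0, and limma-voom with quality weights 4092, 4, 7, 9, 24 and 3. For Capicua targets DESeq2, no filter and counts without regard to strand gave 2 each. Leaving out each library gave 991 to 3606, 0 to 3, 1 to 6, 2 to 10, 3 to 24 and 0 to 1; over all genes, omitting WT replicate 2 left 1336 and omitting KO replicate 1, 2 or 3 left 1244, 1079 or 991, with fewer samples in each fit. The cause of these shifts was not tested otherwise. With the replicate block the counts were 1073, 0, 1, 2, 6 and 0. Same-numbered libraries did not deviate together (correlations of −0.183, −0.140 and −0.0997), and no WT library correlated best with its own number. With 3 libraries per group and WT replicate 3 set apart, these correlations cannot show whether the numbers pair the samples. Depth limits WT replicate 3 most, with 156 reads of Atxn3 and 161 of Atxn7.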
